A study of Mus musculus with 8 samples.

Results

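The genes described here handle vitamin A in the gut: 10 genes of its uptake, storage and conversion, chosen by symbol from a list for this pathway and each measured by 1 probe set, out of 19505 named genes on the array. They were measured in the duodenum of 4 mice that lack IκBα in the intestinal epithelium (KO) and of 4 wild-type (WT) littermates, which form 4 sibling pairs. In KO mice a floxed Nfkbia gene, which encodes the NF-κB inhibitor IκBα, had lost its promoter and leading exons through Cre driven by the villin promoter, so the deletion is confined by design to villin-expressing epithelial cells. Mice were untreated, their ages ran from 8 to 11 weeks, and each group held 2 males and 2 females. Siblings had 1 sex in pairs 1 and 2 and differed in sex in pairs 3 and 4. The sources used here do not say whether the WT mice carried Cre or floxed alleles. The list was proposed with results of this same KO and WT comparison in view, so the members' values are given as a description, without a test of each. Values are log2 expression values. The error after ± is the SD of the 4 within-pair differences, KO minus WT.

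Dietary vitamin A reaches enterocytes as retinol or as β-carotene. Bco1 cleaves β-carotene to retinal, retinal is reduced to retinol, Rbp2 binds both inside the enterocyte, and Lrat esterifies retinol for export in chylomicrons. Retinol dehydrogenases and then retinaldehyde dehydrogenases instead carry the molecule on to retinoic acid, the ligand of nuclear receptors that in the gut also guides lymphocyte homing. Isx is an intestinal homeobox repressor of Bco1 and of the carotenoid receptor gene Scarb1.

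The storage gene Lrat, the dehydrogenase and reductase genes Rdh7, Rdh16, Rdh14 and Dhrs3, and the binding protein gene Rbp2 were lower in KO duodenum in 4 of 4 pairs, by 1.35-fold to 2.29-fold on average. The carotenoid genes Bco1 and Isx differed by 1.09-fold and 1.05-fold, without a common direction over the pairs. The retinaldehyde dehydrogenase genes lay between, with 3 of 4 pairs lower. The median difference of the 10 members was −0.605, against −0.015 over all 22206 probe sets, and it was −0.37 without pair 4. In the limma fit over all probe sets, 5 of the 10 members passed an adjusted p of 0.05, all lower (Rdh7, Rdh16, Rdh14, Dhrs3 and Lrat), where 5.86% of all probe sets passed in either direction, 2.7% as lower and 3.16% as higher. Since the members were picked from this comparison, nothing is read from that count. It was 1, 2, 2 and 1 of 10 without pair 1, 2, 3 or 4, while the count over all probe sets was 1301 with all pairs and 204, 145, 459 and 239 without each of them.

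**Figure D1:**
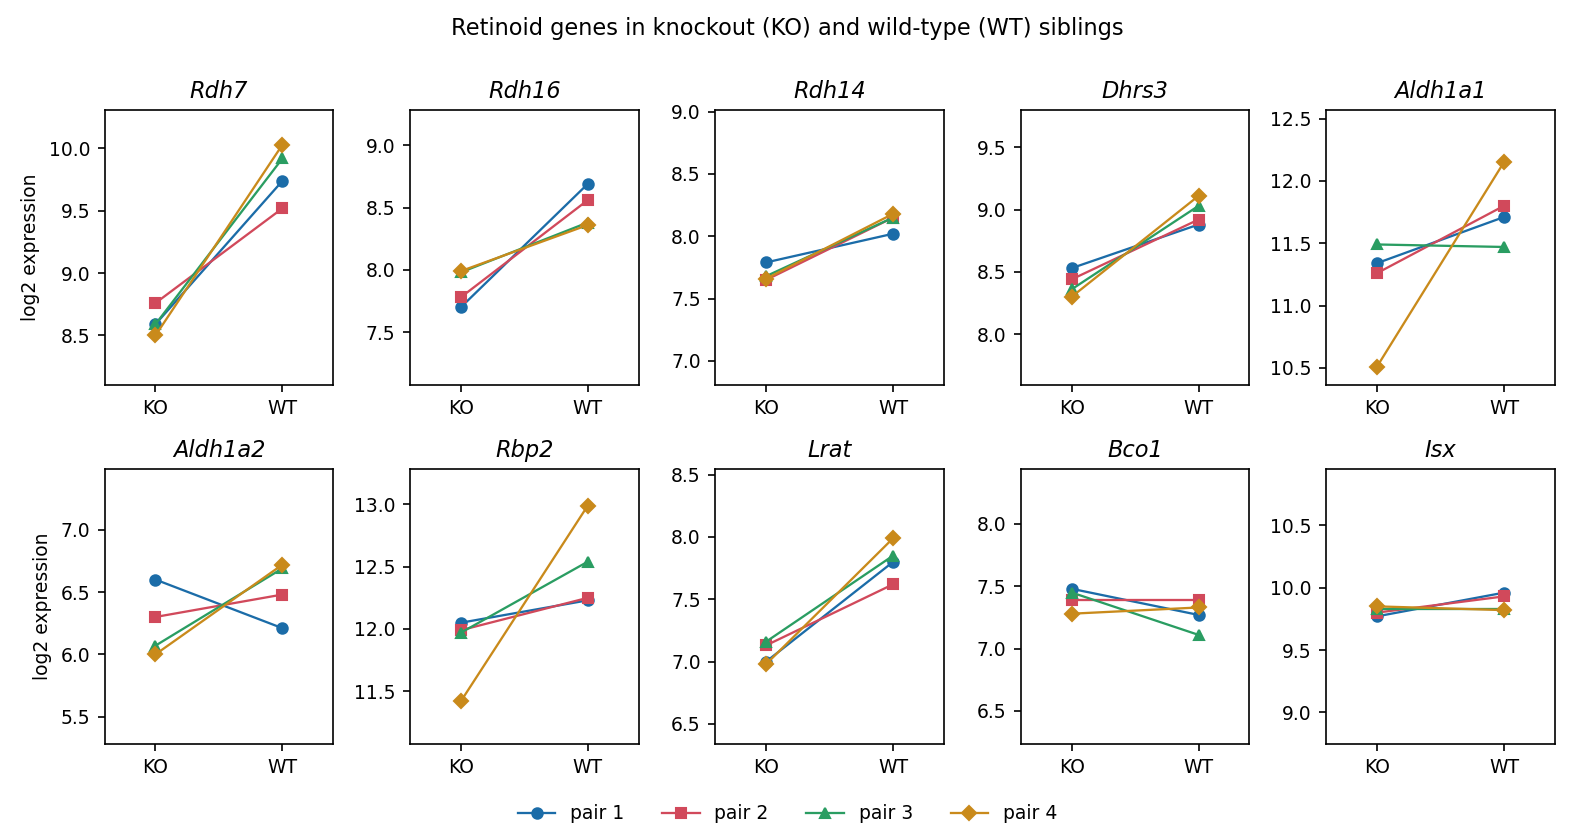
Log2 expression of each retinoid gene in KO (left) and WT (right) siblings, 1 line per pair, each panel spanning the same log2 range. Rdh7, Rdh16, Rdh14, Dhrs3, Rbp2 and Lrat slope upward to WT in all 4 pairs, while the lines of Bco1 and Isx stay nearly flat.

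Some facts of the whole table bear on these values. The deposited values retained little difference between pairs: the 4 pair means of a probe set had a median SD of 0.0175, against 0.0897 expected from the within-pair differences. An SD within a group is therefore not interpreted, and groups that do not overlap are common: every KO value lay below every WT value in 17.2% of all probe sets and above in 15.9%, and the KO value was lower in 4 of 4 pairs in 17.9% and higher in 16.5%. The within-pair differences were alike in pairs 1 and 2 and in pairs 3 and 4. Epithelial genes were strong in all arrays, with Epcam between 12.83 and 12.92 in KO and between 13.07 and 13.08 in WT, and both a duodenal regulator, Gata4, and the ileal bile acid-binding gene Fabp6 gave clear signal. Genes of the proximal intestine were not alike in the groups: the summed level of 4 of them was 2150, 6318, 3844 and 4784 in KO mice of pairs 1 to 4, against 2281, 1141, 2070 and 1861 in WT mice. Of these, Pdx1, Onecut2 and Cybrd1 averaged 1.41, 1.41 and 1.70 higher in KO without passing by limma (adjusted p = 0.0612, 0.0766 and 0.0975), with little or no difference in pair 1 for Pdx1 (−0.07) and Cybrd1 (0.05). Of 3 genes of the distal intestine, Fabp6 alone passed. It was higher in KO in 4 of 4 pairs (0.41 ± 0.05, limma adjusted p = 0.0272), though its groups overlapped. Slc10a2 (−0.02) and Osr2 (−0.785) did not pass. The part of the region of the gut in the members' values was not tested. Genes listed for other tissues varied between arrays. Summed levels of 6 stomach genes ran from 321 to 626 in KO and from 914 to 3903 in WT. Those of 7 pancreatic acinar genes ran from 758 to 3051 in KO and from 1649 to 11196 in WT. The highest sums of both were in the WT mice of pairs 3 and 4. The stomach genes were not alike: Gkn1, Gkn2, Tff2 and Muc5ac averaged −2.72, −3.245, −2.41 and −0.74, against 0.13 for Atp4a and −0.31 for Atp4b. Adipose genes ran from 1528 to 5262 in KO and from 780 to 1888 in WT, highest in the KO mice of pairs 1 and 2. In bulk tissue, fewer cells of a type and less RNA per cell cannot be told apart. Nfkbia itself was 6.82, 6.65, 7.72 and 6.65 in KO mice of pairs 1 to 4, against 9.75, 9.91, 9.01 and 9.78 in their WT siblings.

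Rdh7 encodes a microsomal short-chain dehydrogenase that oxidises retinol and also androgens. It had the largest difference among the members. Its log2 value was 8.59, 8.76, 8.59 and 8.50 in KO mice of pairs 1 to 4, against 9.74, 9.52, 9.92 and 10.03 in their WT siblings. The KO range lay wholly below the WT range, and the differences of −1.15, −0.76, −1.33 and −1.53 averaged −1.19 ± 0.33, or 43.8% of the WT level.

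The bases upstream of its outermost annotated start site are shown because they hold a half-site of nuclear receptors, the factor class to which the retinoic acid receptors belong. Sequences here are from RefSeq on build GRCm38.p6, written in the gene's direction and ending 1 base before the start site. The window of Rdh7 is chr10:127889248-127889497 on the minus strand, and capitals mark the half-site AGGTCA, which reads TGACCT on this strand.
Rdh7: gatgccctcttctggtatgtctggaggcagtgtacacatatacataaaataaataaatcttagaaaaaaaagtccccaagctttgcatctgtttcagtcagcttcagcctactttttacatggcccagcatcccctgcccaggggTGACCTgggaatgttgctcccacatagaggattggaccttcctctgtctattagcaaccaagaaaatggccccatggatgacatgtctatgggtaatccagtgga

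Rdh16 encodes a close relative of the Rdh7 product with the same kind of activity and lies near it on chromosome 10. KO mice had 7.70, 7.78, 7.98 and 7.99 in pairs 1 to 4, and WT mice 8.69, 8.56, 8.38 and 8.36. Again no KO value reached a WT value. The difference was −0.635 ± 0.30 on average, and it was larger in pairs 1 and 2 (−0.99 and −0.78) than in pairs 3 and 4 (−0.40 and −0.37), an order that Rdh7 did not share.

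Rdh14 acts between retinol and retinal. Its values were 7.79, 7.65, 7.68 and 7.66 in KO mice and 8.02, 8.15, 8.15 and 8.18 in WT mice, a difference of −0.43 ± 0.13. The groups did not overlap, and pair 1 had the smallest difference, −0.23.

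Dhrs3 reduces retinal back to retinol and is itself induced by retinoic acid in other systems. KO values were 8.53, 8.44, 8.36 and 8.30, all below the WT values of 8.88, 8.92, 9.03 and 9.11. The mean difference was −0.58 ± 0.20, and it was smallest in pair 1 at −0.35 and largest in pair 4 at −0.81.

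Lrat, which makes the retinyl esters that leave the enterocyte, had 7.00, 7.13, 7.16 and 6.98 in KO mice and 7.80, 7.62, 7.85 and 7.99 in WT mice. No KO value reached a WT value. The difference averaged −0.75 ± 0.22, or 59.6% of the WT level, with −0.49 in pair 2 as the smallest.

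Rbp2, the cellular retinol-binding protein of the enterocyte, was lower in each pair, but pair 4 gave most of the mean. KO mice had 12.05, 11.99, 11.97 and 11.42, against 12.23, 12.25, 12.54 and 12.99 in WT mice. The differences were −0.18, −0.26, −0.57 and −1.57, with a mean of −0.645 ± 0.64, and without pair 4 the mean was −0.34. Pair 4 also held the extremes of the enterocyte markers. Their summed level was 99158, 102513, 102645 and 87418 in KO mice of pairs 1 to 4, against 116455, 114621, 118652 and 139625 in WT mice, and the fatty acid-binding gene Fabp2 differed by −2.05 in pair 4, against −0.20 to −0.61 in the others. The KO mouse of pair 4 had the lowest RNA integrity number of the study, 7.0. The part of either in the Rbp2 values was not tested.

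Aldh1a1 makes retinoic acid from retinal. Its KO values were 11.34, 11.26, 11.49 and 10.51, and its WT values 11.71, 11.80, 11.47 and 12.15, so that the groups overlapped. Pair 3 showed no difference (0.02) and pair 4 the largest (−1.64), as for Rbp2. The mean was −0.63 ± 0.71, and −0.30 without pair 4.

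Aldh1a2 does the same step and in the gut is known from dendritic cells, stromal cells and mesothelium rather than enterocytes. It was 6.60, 6.30, 6.07 and 6.0 in KO mice, against 6.21, 6.48, 6.69 and 6.72 in WT mice. It was thus higher in KO in pair 1 (0.39) and lower in pairs 2, 3 and 4 (−0.18, −0.62 and −0.72). The mesothelial gene Msln differed by 0.18, 0.05, −1.26 and −0.59 in pairs 1 to 4, and Upk3b by 0.51, 0.38, −1.33 and −1.23. The fibroblast gene Lum differed by 0.75, 0.63, −0.42 and −1.34. Summed over 5 mesothelial genes, KO mice had 1127, 1117, 713 and 705 and WT mice 908, 918, 1283 and 1294. The 9 dendritic cell genes summed to 1170, 1152, 1114 and 1122 in KO mice and to 1109, 1132, 1173 and 1148 in WT mice. By limma 2 of the 9 were higher and 0 lower, where 3.16% of all probe sets passed as higher and 2.7% as lower. Both, Flt3 (0.39 ± 0.13) and Clec9a (0.62 ± 0.29), lay below the background level. The part of these cells in the Aldh1a2 values was not tested.

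Bco1 had 7.48, 7.39, 7.45 and 7.28 in KO mice and 7.27, 7.39, 7.11 and 7.33 in WT mice. The groups overlapped, and the differences of 0.21, 0.00, 0.34 and −0.05 averaged 0.13 ± 0.18. After centring the arrays on housekeeping genes the mean was −0.044, so its direction depends on the scaling. The 9 housekeeping genes had themselves a median difference of 0.1925, so this centring lowers every gene in KO relative to WT. Isx had 9.77, 9.80, 9.83 and 9.85 in KO mice and 9.96, 9.93, 9.83 and 9.82 in WT mice, with a mean difference of −0.07 ± 0.10. Its values differed from pair to pair by less than those of any other member.

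The upstream windows of Rbp2 and Bco1 are set side by side because they share a run of 11 bases at nearly the same distance from the start site, although Rbp2 was lower in 4 of 4 pairs and Bco1 in 1 of 4. Capitals mark the run TGACCTTTGAC, which begins 58 bases upstream in Rbp2 and 56 bases upstream in Bco1. The windows are chr9:98490287-98490536 and chr8:117095615-117095864, both on the plus strand.
Rbp2: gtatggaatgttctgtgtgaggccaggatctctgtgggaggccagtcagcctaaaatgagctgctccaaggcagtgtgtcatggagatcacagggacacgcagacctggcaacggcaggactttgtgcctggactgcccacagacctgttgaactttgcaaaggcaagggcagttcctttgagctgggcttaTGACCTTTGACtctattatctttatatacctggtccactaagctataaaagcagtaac
Bco1: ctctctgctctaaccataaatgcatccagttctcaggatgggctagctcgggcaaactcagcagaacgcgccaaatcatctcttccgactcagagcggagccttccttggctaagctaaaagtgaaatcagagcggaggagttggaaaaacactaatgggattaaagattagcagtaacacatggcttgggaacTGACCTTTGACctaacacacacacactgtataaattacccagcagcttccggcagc

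The run was singled out after these windows had been read, and it occurs in 10 of 32536 distinct upstream windows of the reference table, or 0.0307%. It contains the half-site AGGTCA read on the other strand. In Bco1 it continues into a second half-site, which makes a direct repeat of AGGTCA spaced by 1 base, present in 0.0338% of windows. The half-site alone is common, at 14% of windows on either strand, and 4 of the 10 members held it (Rdh7, Rdh16, Rbp2 and Bco1) over 14 annotated windows. The direct repeat of AGGTCA spaced by 5 bases, a classical form of retinoic acid response elements, was found in 0 member windows, and in 0.00922% of all windows. An NF-κB pattern, GGGA and CC spaced by 4 bases, was found in 17.7% of windows and, of the members, in Dhrs3 alone. These are letter matches in 250 bases, searched on both strands.

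The other genes of the pathway were drawn from general knowledge of vitamin A metabolism and not by how they moved. Earlier results of these data were known, however, and the members had been set apart, so the list is not an independent one. Of its 51 genes, 47 were measured here. Of these, 4 were lower and 0 higher by limma, and the median difference was −0.02. In the same fit 5.86% of all probe sets passed. An unadjusted p under 0.05 by limma was found for 14 of the 47, and for 6098 of all 22206 probe sets, so nothing is read from the 14. No gene of carotenoid uptake (5 measured), ester formation and hydrolysis (4), retinoic acid breakdown (3) or the nuclear receptors (6) passed.

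Among 18 further retinol dehydrogenase and retinal reductase genes, 2 fell. Rdh16f2, a relative of Rdh16 named for it, had 6.33, 6.38, 6.37 and 6.32 in KO mice and 7.20, 7.09, 7.30 and 7.44 in WT mice. No KO value came near a WT value. The difference was −0.91 ± 0.17 (limma adjusted p = 0.00731, lower in 4 of 4 pairs), and it passed on leaving out any 1 pair. Adh7, an alcohol dehydrogenase active on retinol, differed by −0.585 ± 0.24 (limma adjusted p = 0.0330), but its values of 4.54 to 4.82 in KO and 5.09 to 5.37 in WT lay below the background level of 5.65, so its size is uncertain. Its adjusted p was 0.0614 to 0.102 without 1 pair. Rdh10, the dehydrogenase that supplies retinal in the embryo, did not pass and was not lower (0.28 ± 0.26, adjusted p = 0.167).

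Aldh1a7, a close relative of Aldh1a1 beside it on chromosome 19, was the 1 gene that fell of 4 listed under retinal oxidation. It was listed for that kinship, and whether its product acts on retinal was not examined. Aldh1a3, in the same list, differed by 0.065. KO mice had 8.28, 8.13, 8.13 and 7.80, against 8.83, 8.94, 8.77 and 8.99 in WT mice, with no overlap. The difference was −0.80 ± 0.28 (limma adjusted p = 0.0206, lower in 4 of 4 pairs). The adjusted p was 0.0523 when pair 1 was left out and 0.0866 when pair 2 was. The upstream windows of the 2 genes are shown because they are nearly the same over the stretch next to the start site: capitals mark a run of 65 bases that begins 94 bases upstream in both and occurs in no other window of the table. Aldh1a1 is shown from its second annotated start, chr19:20601718-20601967 on the plus strand, and Aldh1a7 is chr19:20727557-20727806 on the minus strand.
Aldh1a1: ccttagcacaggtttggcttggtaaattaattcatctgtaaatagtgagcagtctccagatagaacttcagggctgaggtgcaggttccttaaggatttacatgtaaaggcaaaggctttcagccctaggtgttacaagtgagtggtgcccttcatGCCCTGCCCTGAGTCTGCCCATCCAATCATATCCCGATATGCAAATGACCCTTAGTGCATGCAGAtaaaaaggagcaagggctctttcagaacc
Aldh1a7: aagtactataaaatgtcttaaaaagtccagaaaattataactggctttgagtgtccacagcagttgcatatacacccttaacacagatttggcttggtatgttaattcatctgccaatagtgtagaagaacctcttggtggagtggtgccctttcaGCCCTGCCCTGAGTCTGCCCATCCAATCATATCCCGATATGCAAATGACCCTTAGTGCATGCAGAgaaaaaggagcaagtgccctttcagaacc

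Of 7 retinoid carriers Rbp7, a cellular retinol-binding protein, fell by a small amount (−0.37 ± 0.13, limma adjusted p = 0.0479, lower in 4 of 4 pairs). Its adjusted p was 0.107 to 0.158 without 1 pair. Rbp4, the plasma carrier, was higher in 4 of 4 pairs without passing (0.73 ± 0.60, adjusted p = 0.0885), with 1.34 and 1.14 in pairs 1 and 2 and 0.17 and 0.27 in pairs 3 and 4. The adipose marker Adipoq differed by 5.10, 4.84, 0.85 and 0.21 in the same pairs, and its part in Rbp4 was not tested.

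In the roles without a called gene, the largest differences were those of Scarb1 in uptake (0.50 ± 0.46, adjusted p = 0.121), the lipase Lpl in ester hydrolysis (0.73 ± 0.89, adjusted p = 0.184), Cyp26b1 in retinoic acid breakdown (0.18 ± 0.23, adjusted p = 0.306) and Rarb among the receptors (−0.25 ± 0.31, adjusted p = 0.249). Lpl, like Adipoq, was furthest from 0 in pairs 1 and 2 (1.66, 1.30, 0.11 and −0.16 in pairs 1 to 4). The part of adipose tissue in its values was not tested. Scarb1, a gene that Isx represses, was higher in KO in each pair (0.13, 1.06, 0.12 and 0.68), yet its groups overlapped. Cyp26a1 and Rarb, which retinoic acid induces in many tissues, differed by −0.11 ± 0.14 and −0.25 ± 0.31, and Cyp26a1 lay below the background level in both groups.

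**Figure D2:**
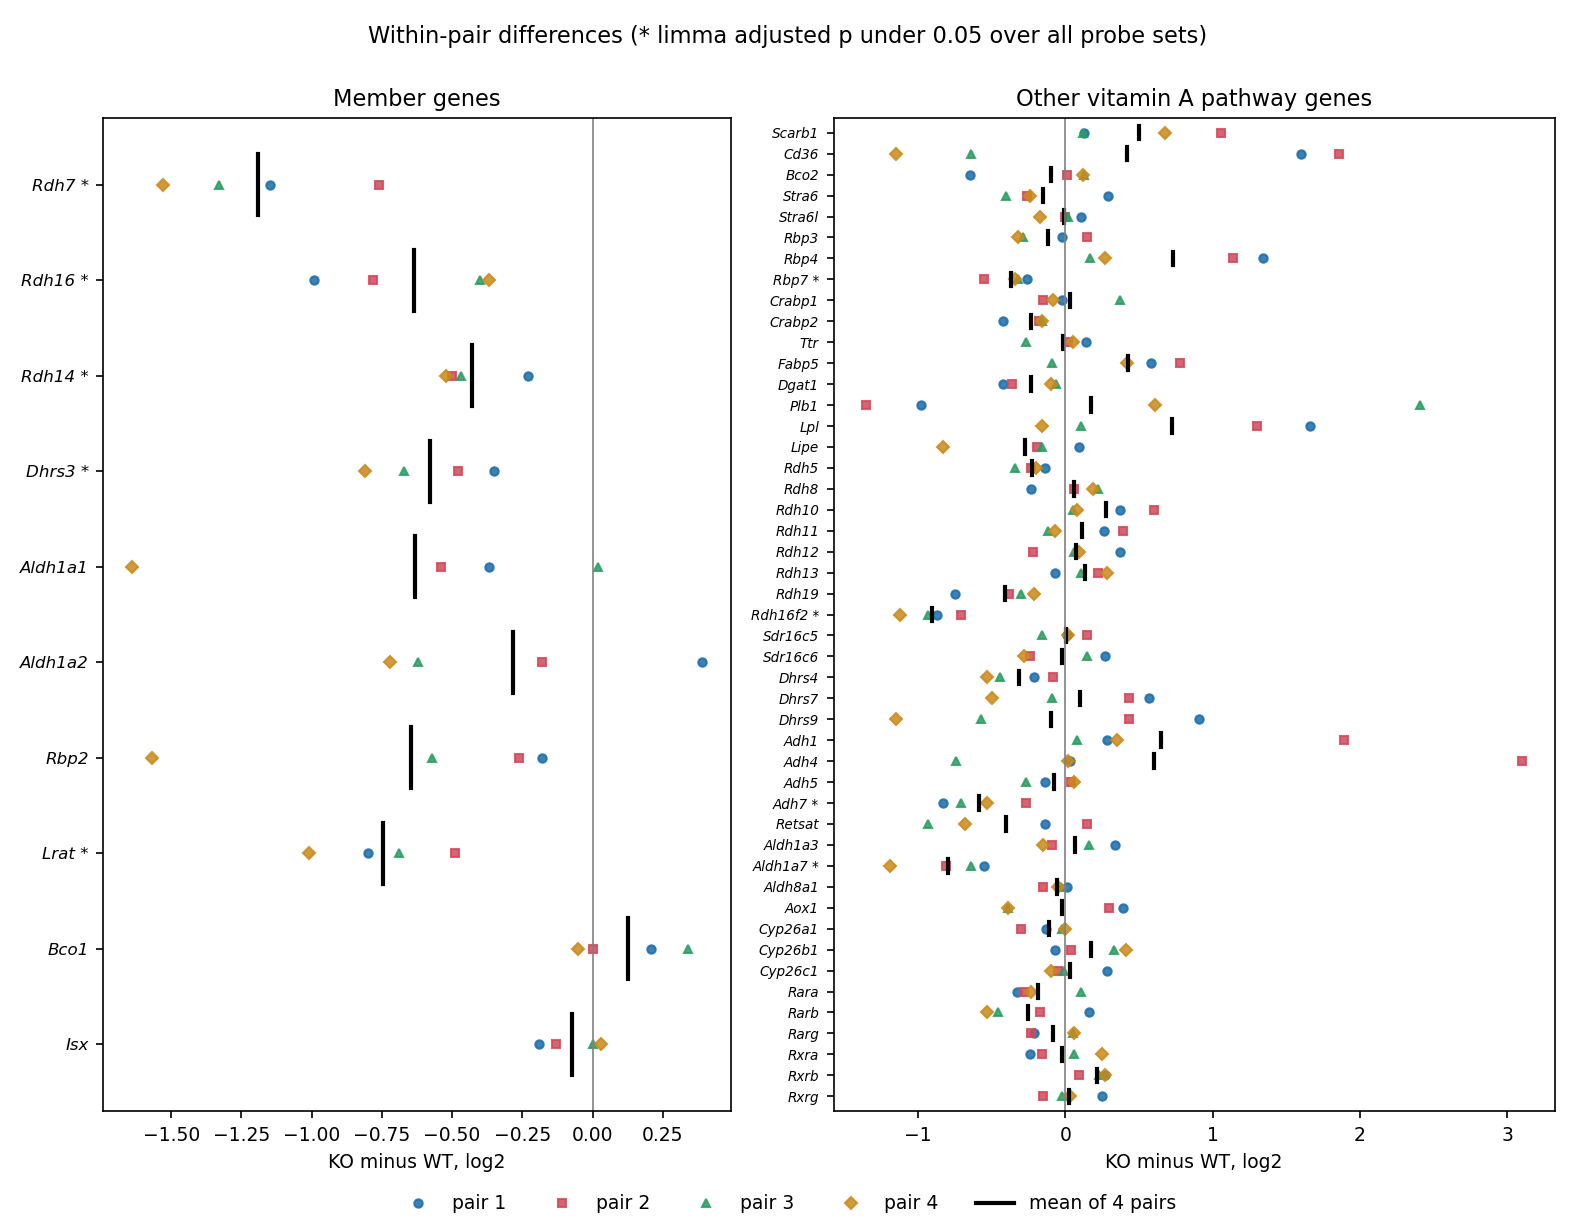
KO minus WT log2 differences of the 10 members (left) and of 47 other genes of vitamin A metabolism (right), 1 symbol per pair with a black bar at the mean of 4 pairs. The asterisks stand beside 5 members and 4 other genes, all with means below 0, while most other genes scatter around 0.

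Position was examined next, as Rdh7 and Rdh16 lie in one run of 8 neighbouring short-chain dehydrogenase genes on chromosome 10. Of these, 6 were measured, and all 6 had a mean below 0. Rdh16, Rdh16f2, Rdh7 and Hsd17b6 passed, where 2.7% of all probe sets passed as lower. Rdh7 and Rdh16 were picked from this comparison, which fixes part of that count. Hsd17b6, a hydroxysteroid dehydrogenase named here after its values were seen, had 9.58, 9.65, 9.56 and 9.57 in KO mice and 10.20, 10.12, 10.51 and 10.56 in WT mice. Its groups were well apart, and its difference was −0.76 ± 0.25 (limma adjusted p = 0.0201, lower in 4 of 4 pairs). It did not pass when pair 1, 3 or 4 was left out (adjusted p = 0.0594, 0.0576 and 0.0693). Rdh19 was lower in 4 of 4 pairs without passing (−0.41 ± 0.24, adjusted p = 0.0670), and Sdr9c7, which lay below the background level, did not pass either (−0.175 ± 0.29, adjusted p = 0.379). The genes just outside the run did not pass: Gpr182 on one side (−0.20 ± 0.21, adjusted p = 0.230) and Prim1 on the other (0.11 ± 0.49, adjusted p = 0.727). Of 48 measured genes that neighbour the other 8 members, 3 on each side, 1 fell (Aldh1a7) and 2 rose, Plcg2 beside Bco1 (0.34 ± 0.09, adjusted p = 0.0465) and Hmox1 near Isx (0.65 ± 0.32, adjusted p = 0.0396), which were not refitted without single pairs. That share is near the 5.86% of all probe sets that passed. Members of the run resemble each other, as do Aldh1a1 and Aldh1a7, and whether their probe sets take up each other's RNA was not tested.

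**Figure D3:**
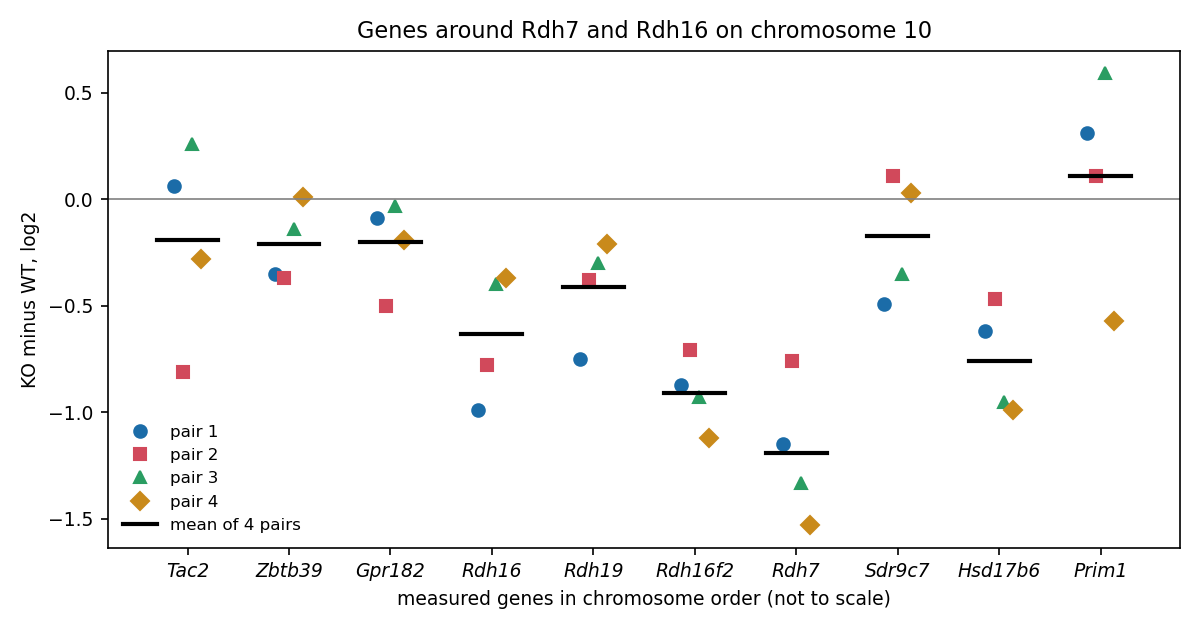
KO minus WT log2 differences of measured genes in chromosome order around Rdh7 and Rdh16, 1 symbol per pair with a black bar at the mean. All 4 pairs lie below 0 for Rdh16, Rdh19, Rdh16f2, Rdh7 and Hsd17b6, and the genes outside the run have means between −0.21 and 0.11.

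The members were finally set beside the marker lists, pair by pair. Their median difference was −0.29, −0.485, −0.52 and −0.765 in pairs 1 to 4. The enterocyte list had medians of −0.255, −0.18, −0.235 and −0.575. Of its 12 genes, 3 were lower and 0 higher by limma, where 2.7% and 3.16% of all probe sets passed. In 4 of 4 pairs, 7 of the 12 were lower and 0 higher, against 17.9% and 16.5% of all probe sets. The epithelial list had −0.02, −0.14, −0.18 and −0.14, with 0 lower and 1 higher (Cdx1) by limma. Of its 9 genes, 4 were lower and 2 higher in 4 of 4 pairs, as were 17.9% and 16.5% of all probe sets. Its summed level ran from 41571 to 44960 in KO and from 47565 to 49119 in WT. Centring the arrays on epithelial genes shifts every gene of an array by the same amount. It left Rdh7 at −1.15 (from −1.19) and Lrat at −0.71 (from −0.75), and nothing is read from it about cell content. The arrays were not centred on the enterocyte list. Stomach medians were −0.56 and −0.35 in pairs 1 and 2 against −2.775 and −2.615 in pairs 3 and 4, and acinar medians −0.42 and 0.31 against −3.70 and −3.35. The proximal intestine list had −0.01, 2.405, 0.98 and 1.665. Averaged over pairs 1 and 2 and then over pairs 3 and 4, Rdh7 differed by −0.955 and −1.43, Lrat by −0.645 and −0.85, and Rdh14 by −0.365 and −0.495. Dhrs3 (−0.415 and −0.74), Aldh1a1 (−0.455 and −0.81) and Rbp2 (−0.22 and −1.07) were also further below 0 in pairs 3 and 4, and Aldh1a2 changed sign (0.105 and −0.67). Rdh16 ran the other way (−0.885 and −0.385), and Bco1 (0.105 and 0.145) and Isx (−0.16 and 0.015) stayed small. The median of the 10 members was −0.39 over pairs 1 and 2 and −0.705 over pairs 3 and 4. The part of enterocyte content or of other tissue in these differences was not tested.

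**Figure D4:**
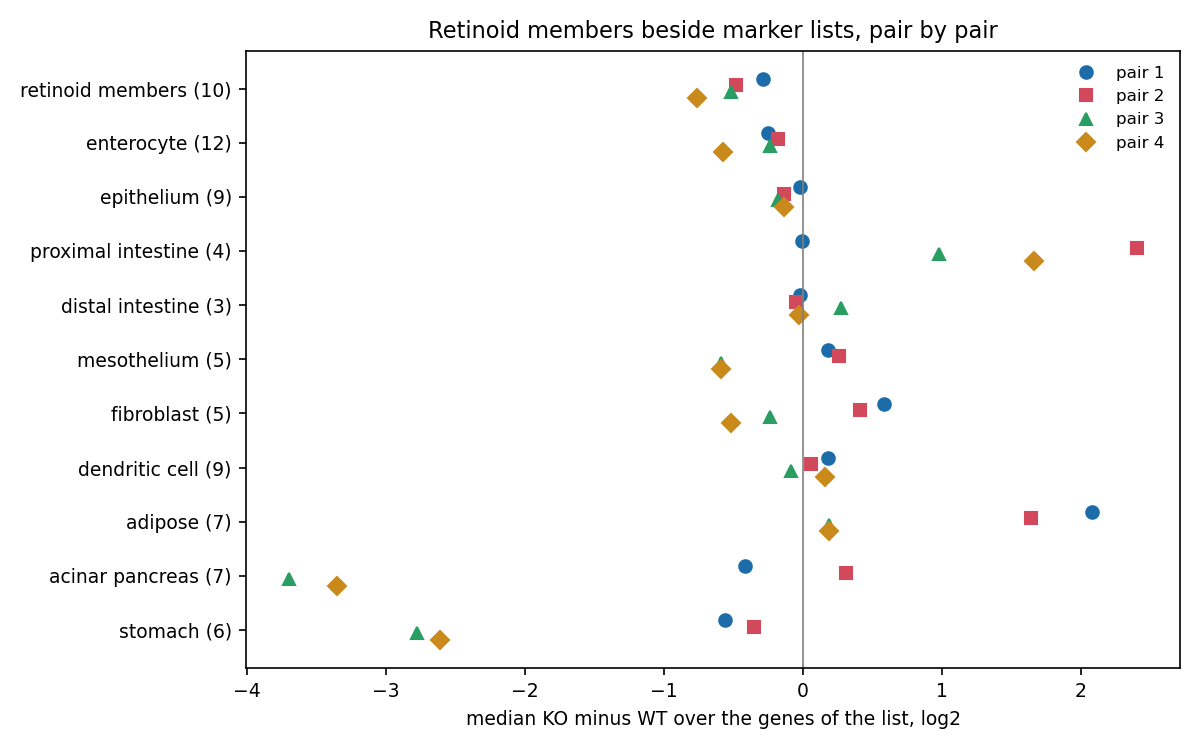
Median KO minus WT log2 difference over the genes of each list, 1 symbol per pair, with the number of measured genes in brackets. The retinoid members lie below 0 in all 4 pairs, while acinar and stomach genes separate pairs 3 and 4 from pairs 1 and 2, and adipose genes do so in the other direction.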

How the data were processed

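Gene expression was measured on Clariom S mouse arrays, 1 per mouse, in 4 KO and 4 WT mice. The labels give small intestine as tissue and the series design duodenum. The authors deposited log2 expression values per probe set. Per the submitters' processing notes, RMA and Transcriptome Analysis Console 4.0 were used. No source used here records an adjustment for pair, yet siblings deviated from their group means in opposite directions (r between −0.913 and −0.870 over probe sets).

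KO was compared with WT by limma 3.58.1 in R 4.3.3 (lmFit, eBayes) on all 22206 probe sets with the sibling pair, given by the labels, as a block, and Benjamini-Hochberg adjustment with a threshold of 0.05. There were 3 residual degrees of freedom. An exact sign-flip test over 4 pairs cannot go below p = 0.125 (two-sided) and was not used. The fit was also run on simulated data whose 4 within-pair differences were drawn independently, so that run does not bear on correlated pairs. Within-pair differences correlated at 0.682 (pairs 1 and 2), 0.673 (pairs 3 and 4) and 0.346 to 0.421 otherwise, which the p-values do not allow for. The members and lists were chosen with earlier results of these data known. Named genes are all members, up to 4 called genes of each role of the other pathway genes or else the one with the largest difference, Nfkbia, and marker genes by value where a member moves with them. The marker genes of this rule were Adipoq, Cpa1, Epcam, Itgax, Msln and Fabp6. Genes named outside it (Hsd17b6, Rdh19, Rdh10, Rbp4, Cyp26a1, Aldh1a3, Adh4, Adh1, Plb1, other neighbours and other marker genes) were chosen after their values were seen. The background level, 5.65, is the 95th percentile of the means of 1091 olfactory receptor probe sets. Symbols came from GEO's platform table: 19572 probe sets had 1 symbol, 0 several and 2634 none. Of a gene with several probe sets the one with the highest mean was used. All 10 members and Aldh1a7 were matched by symbol in the RefSeq promoter table. Alternatives were the fit without the block, leaving out pairs, variance moderation, a filter on dim probe sets, normalization, centring, and sex or RNA integrity as covariates. The number of arrays limits the precision.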

Additional observations from a re-analysis of the deposited data

Results flagged for a closer look

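Of 30 sets of 4 values examined for the members (KO values, WT values and within-pair differences of each gene), 1 held a value far from the others: the KO mouse of pair 4 had 11.42 for Rbp2, against 11.97, 11.99 and 12.05 in the other KO mice. Its gap to the nearest value exceeded Dixon's 95% critical share of the range. Chance alone marks about 5% of such sets, so 1 in 30 is not more than chance gives.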

How the results depend on the processing

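Of 140 member values under 14 other settings, 102 kept their direction and side of the threshold, 31 lost and 4 gained a call, and 3 changed sign. These 3 were Bco1 (−0.044 centred on housekeeping genes), Aldh1a2 (0.105 with pairs 1 and 2 only) and Isx (0.015 with pairs 3 and 4 only). Outside the members, Cyp26b1 was −0.015 with pairs 1 and 2 only and Lpl −0.025 with pairs 3 and 4 only. Only the 5 called members could lose a call, so the 31 losses are all theirs. Rdh7 kept its call in 12 of 14 settings, Lrat in 9, and Rdh16, Rdh14 and Dhrs3 in 6 each. Rdh16, Rdh14 and Dhrs3 passed in 0 of the fits without 1 pair. All 5 were lower in each setting, and as they were picked from this comparison, nothing is read from these counts. Calls over all probe sets numbered 1301 (702 higher, 599 lower). Without the pair as a block they numbered 7648 (7 members, 14 other pathway genes). Leaving out 1 pair gave 145 to 459 (1 to 2 members, 1 to 2 other genes). With trend and robust variance there were 1997. Centred on housekeeping genes there were 6152 (511 higher, 5641 lower), with 14 other pathway genes lower, since the median over all probe sets became −0.18 against −0.015, and centred on epithelial genes 1004 were higher and 501 lower. RNA integrity as a covariate gave 364 (1 member, 2 other genes) and sex 464 (2 members, 2 other genes). Pairs 1 and 2 only gave 0 (5278 at unadjusted p under 0.05 by limma; 0 members, 0 other genes) and pairs 3 and 4 only 26 (0 members, 0 other genes), where 2 pairs leave few degrees of freedom. The other causes were not tested.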

Other observations

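The alcohol dehydrogenase genes Adh4 and Adh1, whose products can oxidise retinol, had their widest difference in pair 2. Adh4 was 7.14, 8.72, 7.17 and 7.63 in KO mice of pairs 1 to 4, against 7.11, 5.62, 7.91 and 7.61 in WT mice, a difference of 3.10 in pair 2. Adh1 differed by 1.89 in pair 2 and by 0.08 to 0.35 in the others. The brush-border iron reductase gene Cybrd1 differed by 3.70 in pair 2 and the regulator Onecut2, a gene of the proximal intestine, by 2.91, each its largest difference. Neither Adh gene passed by limma (adjusted p = 0.537 and 0.204).

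Plb1, whose brush-border product hydrolyses retinyl esters, was 8.52, 8.50, 9.71 and 8.55 in KO mice and 9.50, 9.85, 7.30 and 7.94 in WT mice. It was lower in KO in pairs 1 and 2 (−0.98 and −1.35) and higher in pairs 3 and 4 (2.41 and 0.61), with a mean of 0.17 ± 1.72 (limma adjusted p = 0.878).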
